A study of Caenorhabditis elegans with 12 samples.

Results

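The 8 genes described here encode the core of the DNA damage checkpoint of the nematode Caenorhabditis elegans. They are the kinase genes atm-1 and atl-1, the clamp genes mrt-2, hus-1 and hpr-9, the kinase-maturation gene clk-2, the effector kinase gene chk-1 and the p53-family gene cep-1. They were taken by name from a table of 27904 genes, and all 8 were among the 14260 genes that passed the filter for low counts. The sequence name first listed for chk-1 had no row, and its row was taken by the annotated name, Y39H10A.7.

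Ribosome-depleted total RNA was sequenced from early embryos (1 to 300 cells) of 4 genotypes grown at 20 °C for 60 to 65 h after synchronization, with 3 libraries per genotype that carry the letters a, b and c in the table. The genotypes were met-2(n4256), set-25(n5021), the double mutant with both alleles, and N2, the wild type. MET-2 and SET-25 are histone methyltransferases that act on lysine 9 of histone H3, and each mutant can be set against N2 to ask how RNA levels differ when either or both are mutated. The labels state 2 biological replicates where 3 libraries are listed, so p-values measure the spread between these libraries, which may be technical in part.

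The checkpoint halts the cell cycle when DNA is broken or replication stalls. Sensor kinases of the ATM and ATR type are recruited to the lesion, a ring-shaped clamp is loaded beside them, and the signal passes to the kinase CHK-1. In the worm germline the same pathway activates CEP-1, which induces the cell death genes egl-1 and ced-13. In the first embryonic divisions ATL-1 and CHK-1 also delay mitosis in the germline precursor cell, so that it divides later than its sister.

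The label of one genotype was in doubt. RNA of met-2 stood at 215 to 313 CPM in the libraries labelled met-2, at 305 to 362 CPM in set-25, at 51.1 to 54.3 CPM in the double mutant and at 315 to 330.2 CPM in N2. CPM is the count of a gene relative to the library total, with totals scaled by TMM, a method that sets them by the bulk of the genes. RNA of set-25 stood at 77.2 to 115.1 CPM in the libraries labelled met-2, at 37.3 to 40.1 CPM in set-25, at 57.5 to 62.3 CPM in the double mutant and at 181 to 218 CPM in N2. The libraries labelled met-2 held far more met-2 RNA than the double mutant, which carries the same allele by its label, and they are called "labelled met-2" throughout.

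Depth and other transcripts differed between genotypes too. Totals were 23543963 to 25667207 counts in labelled met-2, 16929810 to 23924919 in set-25, 42943190 to 46833848 in the double mutant and 41033729 to 52683919 in N2. With every library thinned to the smallest, 5 of the 8 genes were called in labelled met-2, 1 in set-25 and 0 in the double mutant, against 6, 2 and 0 at full depth. Of the 12993 genes tested after thinning, 8102 were called in labelled met-2, 5757 in set-25 and 1216 in the double mutant against N2. At full depth it was 9236, 6519 and 1717 of 14260. A list of 15 maternal transcripts, abundant in the youngest embryos, summed to 1805 to 2190 CPM in labelled met-2, 1663 to 2358 CPM in set-25, 4331 to 4940 CPM in the double mutant and 4866 to 6322 CPM in N2. A list of 15 genes of differentiated tissues summed to 1069 to 2539 CPM in labelled met-2, 143 to 1007 CPM in set-25, 789.6 to 823 CPM in the double mutant and 107 to 258 CPM in N2. All 15 maternal genes were tested, and 14 fell in labelled met-2, 14 in set-25 and 2 in the double mutant. Of the tissue genes 13 were tested, and 13 rose in labelled met-2, 9 in set-25 and 8 in the double mutant. The part of these differences in the results was not tested. Yolk genes of adults (6 genes, at most 2.43 CPM in sum) and sperm genes (9 genes, at most 1.29 CPM in sum) were near 0 in every library. The median log2 change of all genes against N2 was 0.050 in labelled met-2, 0.070 in set-25 and -0.0060 in the double mutant with TMM, and 0.32, 0.37 and 0.0031 with plain library totals. In labelled met-2 5017 genes rose and 4219 fell (6250 and 2438 with totals). In set-25 3445 rose and 3074 fell (5780 and 1761 with totals). In the double mutant 1241 rose and 476 fell (1223 and 295 with totals, 1446 and 271 with RLE scaling).

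**Figure D1:**
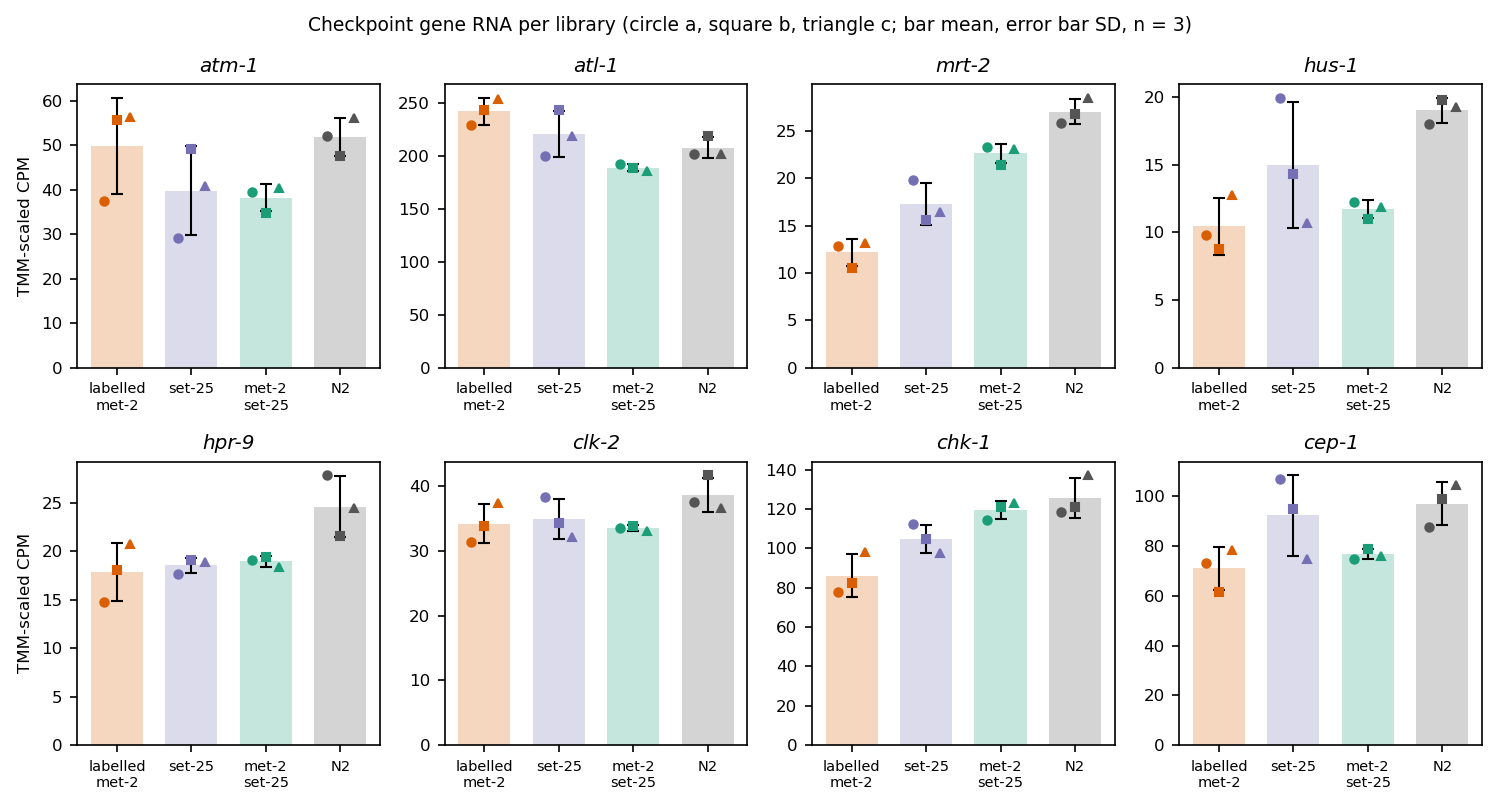
TMM-scaled CPM (y axis, from 0) of each of the 8 genes in labelled met-2, set-25, the double mutant and N2 (x axis). Points are libraries, bars are means and error bars are SD over 3 libraries; for mrt-2 the labelled met-2 libraries, at 10.6 to 13.2 CPM, lie far below the N2 libraries, at 25.8 to 28.5 CPM.

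Set against N2, labelled met-2 embryos had less RNA of all 3 clamp genes, of chk-1 and of cep-1, and slightly more of atl-1. Of the 8 genes, 5 fell and 1 rose (adjusted p under 0.05, edgeR quasi-likelihood test with Benjamini-Hochberg adjustment over all genes), where 29.6% of all genes tested fell and 35.2% rose. In the same 5 every labelled met-2 library lay below every N2 library, as in 34.9% of all genes. The median log2 change of the 8 was -0.46, against 0.050 for all genes. In bulk embryos fewer cells of a type and less RNA per cell cannot be told apart.

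In set-25, mrt-2 and hpr-9 fell and no member rose, where 21.6% of all genes fell and 24.2% rose; 3 members lay below N2 without overlap, as did 24.3% of all genes. The median of the 8 was -0.30, against 0.070 for all genes. In the double mutant 0 of the 8 passed the edgeR test, where 3.34% of all genes fell and 8.70% rose, and DESeq2 called 1. An unadjusted p under 0.05 by edgeR was found for 4, and the share of all genes under that cutoff was not counted. Yet in 7 of the 8 every double-mutant library lay below every N2 library, as in 28.3% of all genes, and the median was -0.30, against -0.0060 for all genes. All 3 comparisons share the N2 libraries.

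**Figure D2:**
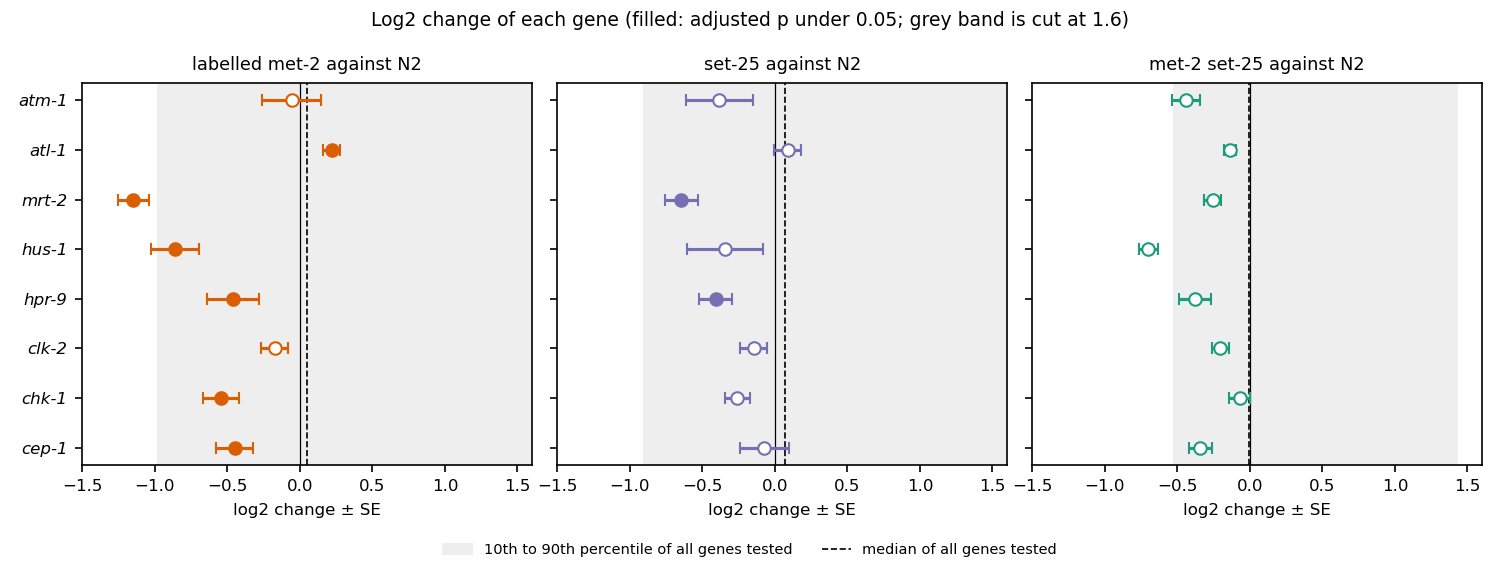
Log2 change against N2 ± SE (x axis) of each gene (y axis) in labelled met-2, set-25 and the double mutant. Filled points have adjusted p under 0.05, and the dashed line is the median of all 14260 genes tested. The grey band runs from their 10th to their 90th percentile. It is cut at the right edge in labelled met-2 and set-25, where the 90th percentile lies beyond the plot (3.10 and 2.04). mrt-2 lies at -1.15 in labelled met-2 and hus-1 at -0.70 in the double mutant, both below the band.

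The largest decreases in labelled met-2 were of the clamp genes mrt-2 and hus-1. MRT-2, HUS-1 and HPR-9 are the worm homologs of RAD1, HUS1 and RAD9, which form the ring that is loaded onto DNA at damage. mrt-2 (Y41C4A.14, chromosome III, 11746766 to 11750175), named for the mortal germline of its mutants, had 12.9, 10.6 and 13.2 CPM in labelled met-2 libraries a, b and c, against 25.8, 26.9 and 28.5 CPM in N2. The groups did not overlap, and labelled met-2 stood at 45.1% of the N2 level. The log2 change was -1.15 (SE 0.11, adjusted p = 3.98e-05) by edgeR, and it was called under 12 of 12 alternatives, at -1.21 to -0.88.

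In set-25 mrt-2 had 19.9, 15.6 and 16.5 CPM, again below every N2 library. That log2 change was -0.65 (SE 0.11, adjusted p = 0.00282) by edgeR. It was not called without set-25 library b (-0.41, adjusted p = 0.0909), without set-25 library c (-0.41, adjusted p = 0.0795) or with library totals (-0.34, adjusted p = 0.0817). Scaling was recomputed each time, and the median of all genes moved with it, to 0.27 without library b, 0.26 without library c and 0.37 with totals, against 0.070. In the double mutant mrt-2 had 23.3, 21.4 and 23.1 CPM, above every library of both single mutants and below every N2 library. The log2 change against N2 was -0.26 (SE 0.057, adjusted p = 0.203) by edgeR.

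hus-1 (H26D21.1, chromosome I, 3698102 to 3699300) had 9.84, 8.75 and 12.8 CPM in labelled met-2, against 17.997, 19.8 and 19.3 CPM in N2. Labelled met-2 stood at 55.01% of the N2 level with no overlap, a log2 change of -0.86 (SE 0.17, adjusted p = 0.0038) by edgeR that was called under 12 of 12 alternatives. The double mutant had 12.3, 10.97 and 11.9 CPM, which also left a gap to N2, at 61.6% of its level. Its log2 change was -0.70 (SE 0.063, adjusted p = 0.0512) by edgeR, just over the threshold, and DESeq2 gave adjusted p = 0.0275.

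The set-25 libraries were far apart for hus-1, with 19.9 CPM in a, 14.3 CPM in b and 10.7 CPM in c. Library a lay just above the highest N2 library, and library c below the whole double mutant. Against N2 the log2 change was -0.34 (SE 0.26, adjusted p = 0.207) by edgeR. In the same libraries a, b and c the tissue genes summed to 143, 674 and 1007 CPM. The maternal transcripts summed to 2074, 2358 and 1663 CPM. Thus hus-1 was lowest where the tissue genes were highest. In set-25 clk-2, chk-1 and cep-1 were also highest in library a and lowest in library c, and atm-1, atl-1, mrt-2 and hpr-9 were not. The part of the tissue genes and maternal transcripts in the result was not tested.

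hpr-9 (Y39A1A.23, chromosome III, 10621551 to 10626398) had 14.8, 18.1 and 20.8 CPM in labelled met-2, 17.7, 19.1 and 18.9 CPM in set-25 and 19.1, 19.4 and 18.3 CPM in the double mutant, against 27.9, 21.6 and 24.5 CPM in N2. All 3 mutant groups lay below N2 without overlap and overlapped each other. The log2 change was -0.46 (SE 0.18, adjusted p = 0.0157) in labelled met-2, -0.41 (SE 0.11, adjusted p = 0.0401) in set-25 and -0.38 (SE 0.11, adjusted p = 0.0992) in the double mutant, all by edgeR. The first was called under 8 of 12 alternatives, the second under 2 and the last under 1. The end of hpr-9 overlaps the opposite-strand gene swt-4 by 469 bases, and swt-4 averaged 11.2 CPM in labelled met-2, 7.28 CPM in set-25 and 6.02 CPM in the double mutant, against 7.40 CPM in N2. No source used here gives the strand setting of the counts, so reads of the shared stretch cannot be told apart.

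Neither sensor kinase gene fell by the test in any mutant. ATL-1, the homolog of ATR, responds to single-stranded DNA at stalled forks. atl-1 (T06E4.3, chromosome V, 9634849 to 9645595) had 229, 243 and 254 CPM in labelled met-2, against 202, 219 and 202 CPM in N2. Every labelled met-2 library was above every N2 library, by a small gap. The log2 change of 0.22 (SE 0.058, adjusted p = 0.0495) by edgeR sat at the threshold and was called under 3 of 12 alternatives, with adjusted p of 0.000311 to 0.223; it was lost without any 1 of labelled met-2 library b or c or N2 library a, b or c. In set-25 atl-1 had 199.96, 244 and 219 CPM, overlapping N2, a log2 change of 0.088 (SE 0.091, adjusted p = 0.453) by edgeR. In the double mutant it had 192, 189 and 186 CPM, below every N2 library, a log2 change of -0.14 (SE 0.041, adjusted p = 0.303) by edgeR.

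ATM-1 is the homolog of ATM, which responds to double-strand breaks. atm-1 (Y48G1BL.2, chromosome I, 183364 to 208384) had 37.4, 55.8 and 56.4 CPM in labelled met-2, 29.2, 49.3 and 40.9 CPM in set-25 and 39.5, 34.7 and 40.4 CPM in the double mutant, against 52.04, 47.5 and 56.1 CPM in N2. Library a was the lowest in both single mutants, and of the mutants only the double lay wholly below N2. The log2 change was -0.057 (SE 0.21, adjusted p = 0.804) in labelled met-2, -0.38 (SE 0.23, adjusted p = 0.122) in set-25 and -0.44 (SE 0.097, adjusted p = 0.129) in the double mutant, all by edgeR. The deposited width of atm-1, 5361 bases, is 21.4% of the 25021 bases that the gene spans in the annotation used here, so its row may count a part of the gene. For the other 7 genes the width was 91.8 to 106% of the span.

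CLK-2 is the homolog of TEL2, a protein that in yeast and mammals is needed for stable kinases of the ATM and ATR type. clk-2 (C07H6.6, chromosome III, 7515222 to 7518524) had 31.4, 33.8 and 37.4 CPM in labelled met-2, 38.3, 34.3 and 32.1 CPM in set-25 and 33.6, 33.9 and 33.1 CPM in the double mutant, against 37.6, 41.7 and 36.6 CPM in N2. The single mutants overlapped N2 and the double mutant did not. The log2 change was -0.17 (SE 0.093, adjusted p = 0.185) in labelled met-2, -0.15 (SE 0.094, adjusted p = 0.302) in set-25 and -0.21 (SE 0.058, adjusted p = 0.209) in the double mutant, all by edgeR; with library totals the first turned to 0.096 and the second to 0.16. clk-2 overlaps 64 bases of cls-1 on the opposite strand, which averaged 29.6 CPM in labelled met-2, 21.3 CPM in set-25 and 26.6 CPM in the double mutant, against 10.9 CPM in N2.

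The effector genes chk-1 and cep-1 fell in labelled met-2. chk-1 (Y39H10A.7, chromosome V, 3757153 to 3759469) had 77.7, 82.3 and 98.3 CPM there, against 118, 121 and 137 CPM in N2. The groups did not overlap, and the log2 change of -0.54 (SE 0.12, adjusted p = 0.000768) by edgeR was called under 12 of 12 alternatives, at -0.65 to -0.27. In set-25 chk-1 had 112, 104 and 97.8 CPM, below every N2 library, a log2 change of -0.26 (SE 0.088, adjusted p = 0.0619) by edgeR that became 0.047 with library totals. The double mutant, with 114, 121 and 123 CPM, overlapped N2, and its log2 change was -0.071 (SE 0.073, adjusted p = 0.649) by edgeR.

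CEP-1 is the worm member of the p53 family. cep-1 (F52B5.5, chromosome I, 8324286 to 8328859) had 73.2, 61.6 and 78.6 CPM in labelled met-2, against 87.8, 99.1 and 104 CPM in N2. There was no overlap, and the log2 change of -0.45 (SE 0.13, adjusted p = 0.0104) by edgeR was called under 9 of 12 alternatives; it was lost without labelled met-2 library a (-0.43) or b (-0.33) and with library totals (-0.18). The double mutant had 74.9, 78.8 and 76.2 CPM, also below every N2 library, a log2 change of -0.34 (SE 0.077, adjusted p = 0.098) by edgeR. In set-25 it had 107, 94.9 and 75.01 CPM in a, b and c, which spans from above the N2 libraries to below them. That log2 change was -0.072 (SE 0.17, adjusted p = 0.681) by edgeR, or 0.23 with library totals.

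**Figure D3:**
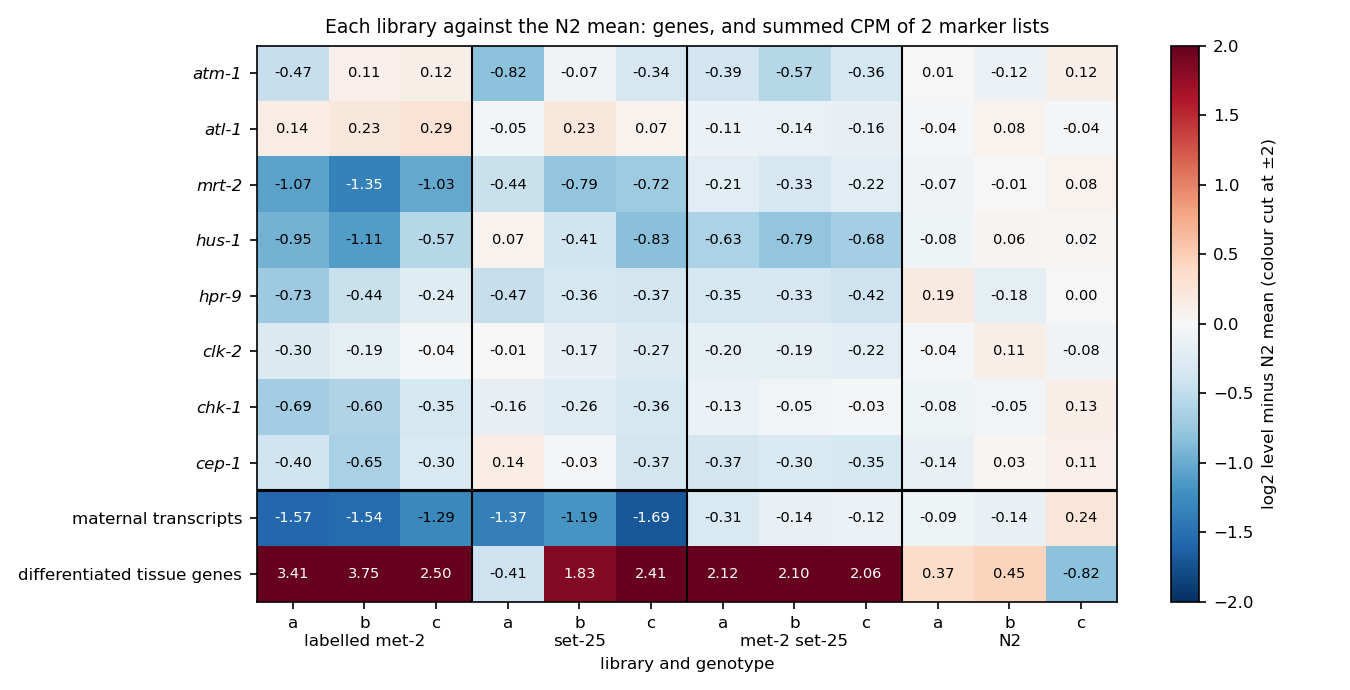
Log2 level of each gene in each library minus the N2 mean (colour, with the value printed), for 12 libraries by genotype (x axis) and 8 genes (y axis), with the summed CPM of the maternal and differentiated tissue genes in the lower rows. In set-25, hus-1 is at 0.066 in library a and -0.83 in library c, while the tissue genes are at -0.41 in library a and 2.41 in library c.

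Some counts in these comparisons rested on single libraries. Without labelled met-2 library b, 3 of the 8 genes were called against N2 in place of 6, namely mrt-2, hus-1 and chk-1. Over all genes 7813 of 14882 were called without that library, against 9236 of 14260. For set-25 the count of 2 became 0 without set-25 library b or c and 1 without N2 library a or c. Without set-25 library a it was 3, with hus-1 (-0.61, adjusted p = 0.015) and chk-1 (-0.32, adjusted p = 0.0254) called by edgeR and hpr-9 lost. Calls over all genes for set-25 were 6160 of 15112 without its library b and 5812 of 15030 without its library c. They were 5404 of 14233 without N2 library a, 4920 of 14227 without N2 library c and 8047 of 15106 without set-25 library a. With all 12 libraries they were 6519 of 14260.

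For the double mutant, the 1 call by DESeq2 was hus-1, where 4.46% of all genes fell. A fit of only the 6 libraries of the double mutant and N2 called 5 members lower by edgeR (atm-1, mrt-2, hus-1, hpr-9 and cep-1), where 22.8% of all genes fell, with adjusted p of 0.000851 for hus-1 to 0.0327 for mrt-2. That fit leaves out the single mutants, whose libraries differed in spread from the others: over the 8 genes the SD as a share of the mean was 5.21 to 21.6% for labelled met-2, 4.12 to 31.05% for set-25 and 1.24 to 7.99% for the double mutant, against 4.67 to 12.8% for N2.

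The mutants were also compared with each other. Set against labelled met-2, the double mutant had more mrt-2 (log2 difference 0.89, SE 0.11, adjusted p = 0.00035) and more chk-1 (0.47, SE 0.11, adjusted p = 0.00296), and less atl-1 (-0.36, SE 0.046, adjusted p = 0.00613), all by edgeR. Thus 2 of the 8 genes were higher and 1 lower, where 23.1% of all genes were higher and 30.8% lower. Over all genes this was 3300 higher and 4396 lower, or 1957 and 6071 with library totals, which moved the median of all genes to -0.38 from -0.12. atl-1 was not called without labelled met-2 library c (-0.24, adjusted p = 0.073), nor chk-1 with library totals (0.21, adjusted p = 0.123). With totals 1 member was higher (mrt-2) and 2 lower (atl-1 and atm-1). For atm-1 the difference was -0.38 (SE 0.21, adjusted p = 0.108) by edgeR, and it was called lower with totals (-0.64, adjusted p = 0.0102) and without labelled met-2 library a (-0.51, adjusted p = 0.0335). For hus-1 it was 0.16 (SE 0.17, adjusted p = 0.537), for hpr-9 0.085 (SE 0.14, adjusted p = 0.644) and for cep-1 0.11 (SE 0.11, adjusted p = 0.506), by edgeR.

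Set against set-25, mrt-2 was the 1 gene of the 8 called in the double mutant (0.39, SE 0.11, adjusted p = 0.0434, edgeR), where 20.5% of all genes were higher and 17.7% lower. This call held under 3 of 12 alternatives; it was lost without set-25 library b (0.23) or c (0.23) and without double-mutant library a (0.42) or c (0.43). The atl-1 difference of -0.22 (SE 0.083, adjusted p = 0.0697) missed the threshold by edgeR but was called lower under 6 of 12 alternatives, with adjusted p of 0.000574 to 0.339 over the 12. With RLE scaling and with thinning it was the 1 call of the 8 (-0.25 and -0.27), and mrt-2 was not called. With library totals atl-1, hus-1, clk-2 and cep-1 were lower and mrt-2 was not called, and 1818 genes were higher and 5066 lower in place of 2918 and 2531, with the median of all genes at -0.40 in place of -0.10.

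Labelled met-2 against set-25, a comparison added after the data were seen, gave lower mrt-2 (-0.50, SE 0.15, adjusted p = 0.0278, edgeR), where 15.5% of all genes were higher and 9.28% lower. The call held under 7 of 12 alternatives and was lost without labelled met-2 library a (-0.66) or b (-0.48) or set-25 library a (-0.40). The differences of hus-1, -0.52 (SE 0.30, adjusted p = 0.0891), of cep-1, -0.38 (SE 0.18, adjusted p = 0.0555), and of chk-1, -0.28 (SE 0.12, adjusted p = 0.0651), did not pass by edgeR. All 3 were called by DESeq2 (adjusted p = 0.0457 for hus-1, 0.0341 for cep-1 and 0.0361 for chk-1). They were also called by edgeR without labelled met-2 library c or set-25 library c, which moved the median of all genes to 0.0049 and 0.016, against 0.11. Calls over all genes rose in these settings too. DESeq2 called 2498 higher and 2096 lower of 14260. By edgeR 2612 were higher and 2809 lower of 15091 without labelled met-2 library c. Without set-25 library c 3284 were higher and 3501 lower of 15030. Over the 12 alternatives hus-1 was called under 3, cep-1 under 6 and chk-1 under 4. This comparison depended on the other libraries in the fit: with only its own 6 libraries 3 of 13402 genes were called by edgeR (0 higher and 3 lower), no member among them, against 3529 of 14260 in the fit of 12 (2205 higher and 1324 lower). Without labelled met-2 library b 88 genes were called.

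Levels were compared between genes per length, as CPM per kilobase of annotated exon, leaving out atm-1 because its row may be partial. The deposited widths of the genes compared exceed their exon lengths, for mrt-2 3129 against 1211 bases. The counts may thus include reads in introns, which was not tested. In N2 chk-1 was the most abundant, at 74.6 ± 6.05 (SD, n = 3). cep-1 followed at 29.6 ± 2.60, atl-1 at 26.7 ± 1.25, mrt-2 at 22.4 ± 1.11 and hus-1 at 20.6 ± 0.994, and hpr-9 and clk-2 were lowest at 14.2 ± 1.82 and 13.8 ± 0.957. The libraries of cep-1 and atl-1 overlapped, as did those of mrt-2 and hus-1 and those of hpr-9 and clk-2. Whether these neighbours differ within the same library was not tested.

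In labelled met-2 chk-1 stood at 51.2 ± 6.44 CPM per kilobase and atl-1 at 31.2 ± 1.62, above cep-1 at 21.7 ± 2.65 without overlap. The other 4 lay close together there, clk-2 at 12.2 ± 1.08, hus-1 at 11.3 ± 2.27, hpr-9 at 10.3 ± 1.73 and mrt-2 at 10.1 ± 1.18, each overlapping its neighbour. In set-25 chk-1 stood at 62.3 ± 4.29, atl-1 at 28.4 ± 2.82, cep-1 at 28.2 ± 4.94, hus-1 at 16.2 ± 5.04, mrt-2 at 14.3 ± 1.86, clk-2 at 12.4 ± 1.12 and hpr-9 at 10.7 ± 0.441. Double-mutant chk-1 stood at 70.95 ± 2.67, atl-1 at 24.3 ± 0.386, cep-1 at 23.4 ± 0.612, mrt-2 at 18.7 ± 0.868, hus-1 at 12.7 ± 0.732, clk-2 at 11.9 ± 0.148 and hpr-9 at 10.9 ± 0.324. Thus chk-1 led in every genotype. In set-25 atl-1 and cep-1 overlapped, as did hus-1 and mrt-2 and also mrt-2 and clk-2, and in the double mutant atl-1 and cep-1 overlapped, as did hus-1 and clk-2. Per kilobase of the deposited width chk-1 was again the highest in N2, at 51.03 ± 4.14, but mrt-2 at 8.65 ± 0.429 lay below clk-2 at 11.7 ± 0.815, so the lower order depends on the length used. The smallest count of any of the 8 genes in a library was 203.

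Of the 8 genes, 3 lie on chromosome I, 3 on III and 2 on V. Those on III, clk-2, hpr-9 and mrt-2, share the chromosome with both mutated genes, met-2 at 8375300 to 8380848 and set-25 at 13283824 to 13293090. Positions are those of WBcel235.

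The genes whose levels over the 12 libraries were most like each member's are given as a description, by Pearson's r of log2 CPM among 8110 other genes with a symbol. Libraries of 1 genotype share that genotype and its depth, so they are not 12 independent points. Closest to mrt-2 were csc-1, a subunit of the chromosomal passenger complex (r = 0.990), egrh-2 (0.988) and fbxc-36 (0.988). csc-1 averaged 70.9 CPM in labelled met-2, 101.4 CPM in set-25 and 145 CPM in the double mutant, against 167 CPM in N2. Closest to hus-1 were rgs-11 (0.980), metl-17 (0.979) and orc-5, a subunit of the origin recognition complex (0.978). orc-5 averaged 102 CPM in labelled met-2, 137 CPM in set-25 and 113 CPM in the double mutant, against 156 CPM in N2. chk-1 was most like sel-10, an F-box gene (0.985), ints-9 (0.981) and odr-4 (0.962), and cep-1 most like bath-5 (0.979), klc-1 (0.972) and rtfo-1 (0.971). atl-1 was most like teg-4 (0.958), vps-8 (0.931) and ced-11 (0.927), and hpr-9 most like ppfr-2 (0.951), hbs-1 (0.907) and ints-2 (0.906). Closest to atm-1 were srh-195 (0.922), him-6, the homolog of the BLM helicase (0.915), and trpp-11 (0.855). The closest to clk-2 were ssna-1 (0.869), exos-8 (0.866) and mes-6 (0.859).

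Other genes of the pathway were taken from 3 lists. The first held 20 partners of the checkpoint, among them the clamp loader, replication protein A, fork proteins and break sensors. In labelled met-2 10 of the 20 fell and the other 10 did not pass the test, where 29.6% of all genes fell and 35.2% rose, with a list median of -0.33 against 0.050 for all genes. The lowest was chk-2, a meiotic kinase, at 2.45 ± 0.458 CPM, against 4.79 ± 0.721 CPM in N2 (log2 change -0.97, SE 0.20, adjusted p = 0.00283, edgeR; SD, n = 3 each), followed by the BRCA1 homolog brc-1 (-0.86, SE 0.11) and the TIPIN homolog tipn-1 (-0.84, SE 0.10). The smallest decreases among those called were of the clamp loader genes hpr-17 (-0.31, SE 0.12) and rfc-2 (-0.34, SE 0.12) and of cid-1 (-0.42, SE 0.082). Of the other loader genes listed, rfc-3 (-0.79, SE 0.15) and rfc-4 (-0.69, SE 0.18) fell further. The loader gene rfc-1 (-0.21, SE 0.13) did not pass the test.

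In set-25 6 of the 20 partners fell and 1 rose, where 21.6% of all genes fell and 24.2% rose, with a list median of -0.086 against 0.070 for all genes. chk-2 (-1.04, SE 0.20), brc-1 (-0.81, SE 0.17) and the 53BP1 homolog hsr-9 (-0.49, SE 0.17) were the lowest, and the claspin homolog clsp-1 rose (0.27, SE 0.056). Among double-mutant embryos 0 of 20 passed the edgeR test, where 3.34% of all genes fell and 8.70% rose, and DESeq2 called 0. An unadjusted p under 0.05 by edgeR was found for 6 (share of all genes not counted). The list median was -0.17 against -0.0060 for all genes.

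The second list held 20 regulators of CEP-1 and genes of the cell death pathway, of which 19 were tested and ced-13 was not. Among the 19 tested, 12 fell and 2 rose in labelled met-2, where 29.6% of all genes fell and 35.2% rose, with a list median of -0.35 against 0.050. The BH3-only gene egl-1, which CEP-1 can induce, averaged 1.24 ± 0.471 CPM, against 5.70 ± 1.24 CPM in N2 (log2 change -2.19, SE 0.37, adjusted p = 0.000109, edgeR; SD, n = 3 each). gld-1, whose product represses translation of cep-1 in the germline, changed by -2.08, SE 0.21, and the caspase gene ced-3 by -1.43, SE 0.077; gld-1 is also on the maternal list. The 2 that rose were kri-1, needed in worms for germ cell death after damage (1.54, SE 0.23), and the sirtuin gene sir-2.1 (0.30, SE 0.10).

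In set-25 9 of these 19 fell and 2 rose, where 21.6% of all genes fell and 24.2% rose, with a list median of -0.37 against 0.070. egl-1 averaged 1.104 ± 0.346 CPM there (log2 change -2.37, SE 0.33), gld-1 changed by -2.18, SE 0.26 and ced-3 by -1.60, SE 0.095, and kri-1 (0.70, SE 0.27) and sir-2.1 (0.57, SE 0.13) rose. Of the 19, 0 passed the edgeR test in the double mutant, where 3.34% of all genes fell and 8.70% rose. DESeq2 called 1 higher and 0 lower, where over all genes it called 2084 higher and 636 lower of 14260. An unadjusted p under 0.05 by edgeR was found for 6 (share of all genes not counted). The list median in the double mutant was -0.00049 against -0.0060. There egl-1 averaged 6.31 ± 0.117 CPM (log2 change 0.15, SE 0.17, adjusted p = 0.743, edgeR).

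The third list held 19 genes of mitotic entry and S phase, the steps that the checkpoint holds back. In labelled met-2 16 fell and 1 rose, where 29.6% of all genes fell and 35.2% rose, with a list median of -0.73 against 0.050. The B-type cyclin gene cyb-3 averaged 609 ± 144 CPM, against 2087 ± 398 CPM in N2 (log2 change -1.78, SE 0.25, adjusted p = 2.1e-05, edgeR; SD, n = 3 each). The next lowest were the inhibitor gene cki-2 (-1.31, SE 0.12) and the cyclin gene cyb-1 (-1.27, SE 0.22), and the phosphatase gene cdc-25.4 rose (2.13, SE 0.57) at the low level of 0.486 ± 0.275 CPM, against 0.109 ± 0.0474 CPM in N2.

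In set-25 13 of the 19 fell and 1 rose, where 21.6% of all genes fell and 24.2% rose, with a list median of -0.59 against 0.070. cki-2 (-1.81, SE 0.12), cyb-3 (-1.62, SE 0.20) and cyb-2.1 (-1.28, SE 0.30) were the lowest and cdc-25.4 rose (1.71, SE 0.23). cyb-2.1 has a close copy, cyb-2.2, and reads may be split between them. In the double mutant 0 of 19 passed the edgeR test, where 3.34% of all genes fell and 8.70% rose, and DESeq2 called 0. An unadjusted p under 0.05 by edgeR was found for 3 (share of all genes not counted). The list median was -0.17 against -0.0060.

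**Figure D4:**
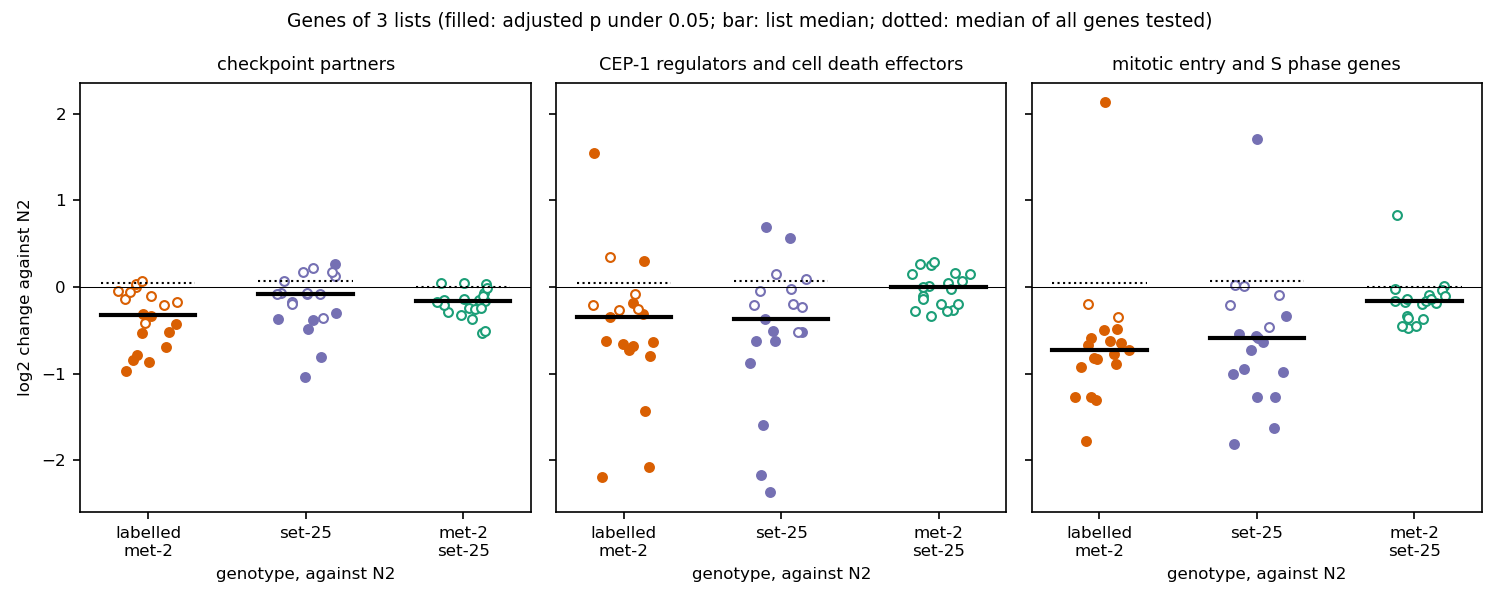
Log2 change against N2 (y axis) of each tested gene of the 3 lists in labelled met-2, set-25 and the double mutant. Filled points have adjusted p under 0.05, the solid bar is the list median and the dotted line the median of all genes tested; the mitotic entry and S phase genes have medians of -0.73 in labelled met-2, -0.59 in set-25 and -0.17 in the double mutant, where no point is filled.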

How the data were processed

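The authors deposited raw counts per gene, 1 column per library per the file headers, and for each gene a width in bases. Aligner, build, annotation and strand setting: no source used here gives them. Columns were assigned to genotypes by name. Of 27904 genes, 97.4% had an entry in Ensembl's WBcel235 annotation, which gave symbols, positions and exon lengths.

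Counts were tested with edgeR 4.0.16 (R 4.3.3): 1 robust quasi-likelihood fit of all 12 libraries, scaled by TMM after filterByExpr by genotype. Tests were two-sided, with Benjamini-Hochberg adjustment over 14260 genes and a threshold of 0.05. The script was tested on simulated data. SE comes from the log2 CPM of the libraries with a prior count of 2. No pair of libraries of a genotype agreed within sampling noise (chi-square per degree of freedom 8.13 to 112). The 12 alternatives per comparison were DESeq2 1.42.0, RLE scaling, library totals, no filter, only the 6 libraries compared, thinning to the smallest library, and leaving out each of the 6 libraries in turn. For labelled met-2 against set-25 the comparison and its alternatives were added after the data were seen, as was a block by column letter for all comparisons.

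The members and lists were chosen with earlier results of these data known. Named besides the 8 genes are met-2 and set-25, overlapping genes, the 3 most alike genes per member, and genes among the 3 highest and 3 lowest called of each list. The other clamp loader genes rfc-1, rfc-3 and rfc-4 were added to these. A table of repeats was not used here.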

Additional observations from a re-analysis of the deposited data

How the results depend on the processing

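Over 6 comparisons, 576 values of single genes under alternatives were computed; 462 kept their direction and side of the threshold, 45 lost the call, 35 gained it and 34 changed sign. For set-25 against N2, 1 of the 8 genes was called with RLE, library totals (atl-1, higher), no filter, only the 6 libraries compared, or thinning, and 0 to 3 with single libraries left out, against 2. Over all genes the calls there were 6394 of 14260 with RLE, 7541 of 14260 with totals and 6042 of 22472 without the filter. With only the 6 libraries they were 4043 of 12884, and with thinning 5757 of 12993, against 6519 of 14260. Labelled met-2 against N2 gave 3 to 5 without single libraries, against 6. The double mutant against N2 gave 1 with DESeq2 and 5 with only the 6 libraries, against 0; without single libraries it gave 0. Against set-25 it gave 4 with totals, 1 with RLE, 1 with thinning (in both atl-1, lower, in place of mrt-2), 2 with DESeq2, 0 without the filter, 0 with only the 6 libraries and 0 to 3 without single libraries, against 1. Calls over all genes in this comparison were 6884 of 14260 with totals, 5466 with RLE and 5914 with DESeq2, against 5449. They were 4819 of 12993 with thinning, 4799 of 22472 without the filter and 3912 of 13084 with only the 6 libraries. Without single libraries they were 3666 to 6429. Labelled met-2 against set-25 gave 2 with RLE, 2 with totals, 0 without the filter, 4 with DESeq2, 0 with only the 6 libraries, 3 with thinning and 0 to 4 without single libraries, against 1. The cause was not tested.

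The columns carry letters and not the replicate numbers of the labels. Of 18 pairs of libraries with the same letter, 4 deviated together from their genotype means with r over 0.1 (-0.65 to 0.30, against -0.49 to 0.62 for 36 pairs with other letters), and 3 of 12 libraries correlated best with their own letter, so the letters are not taken to pair libraries. A replicate block by letter, chosen after the data were seen and not counted among the 12 alternatives, gave 5 members called in labelled met-2 against N2 (atl-1 lost), 1 in set-25 (hpr-9 lost), 0 in the double mutant, 3 in the double mutant against labelled met-2, 0 against set-25 (mrt-2 lost) and 1 in labelled met-2 against set-25; over all genes it moved the calls in the double mutant against N2 to 741, against 1717 without the block, and in labelled met-2 against set-25 to 1841, against 3529.

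Over all genes, the calls in the double mutant against N2 were 2720 with DESeq2, 6115 with only the 6 libraries and 368 to 777 without single libraries, against 1717. Set-25 against N2 gave 4043 with only the 6 libraries and 4920 to 8047 without single libraries, against 6519. For labelled met-2 against N2 it was 7813 to 9421 without single libraries, against 9236. Labelled met-2 against set-25 gave 3 with only the 6 libraries and 88 to 6785 without single libraries, against 3529.

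No value that changed sign was called in either form. With library totals, log2 values were 0.21 (atm-1) and 0.096 (clk-2) in labelled met-2, and 0.16 (clk-2), 0.047 (chk-1) and 0.23 (cep-1) in set-25. For the double mutant they were -0.099 (hus-1), -0.18 (hpr-9) and -0.15 (cep-1) against labelled met-2, and -0.26 (hpr-9) and -0.11 (chk-1) against set-25. Thinning gave 0.031 for cep-1 in set-25 and 0.00053 for chk-1 in the double mutant. clk-2 in the double mutant against labelled met-2 was 0.00038 with RLE, 0.018 without the filter, 0.00018 with DESeq2 and 0.017 with the 6 libraries, and -0.047 to 0.12 without single libraries. Other ranges without single libraries that crossed 0 were -0.16 to 0.15 for atm-1 in labelled met-2, and -0.61 to 0.047 (hus-1), -0.23 to 0.10 (clk-2) and -0.20 to 0.25 (cep-1) in set-25. For the double mutant against set-25 they were -0.23 to 0.054 (atm-1), -0.068 to 0.11 (hpr-9) and -0.23 to 0.020 (clk-2), and for labelled met-2 against set-25 -0.060 to 0.073 (atl-1) and -0.26 to 0.035 (clk-2).

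Each of the genes had at least 203 counts in every library, and the part of counting error in the spread was not tested. Other limits are 3 libraries per genotype, the doubt about the labelled met-2 libraries and the uneven depth. Where a library is left out, its group of 2 shares the spread of the others, and recomputed scaling moved the median of all genes most in set-25 against N2, to 0.27 without set-25 library b against 0.070.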
